A study of Mus musculus with 6 samples.

Results

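The genes of the mTOR complexes and of nutrient sensing at the lysosome were compared between Th1 cells cultured with and without ALX-5407. The 10 genes were Mtor, Rptor, Rictor, Mlst8, Rraga, Rragc, Rragd, Flcn, Fnip1 and Tfeb, taken by gene name from a count table of 54532 genes, and all 10 passed the filter on low counts. The samples were 6 cultures of CD4+ T cells sorted from mouse spleen (per the study's methods, male C57BL/6 mice) and kept for 72 h under Th1 conditions, a cytokine setting in which CD4+ T cells become producers of IFN-γ. Of these cultures, 3 received 500 nM ALX-5407, which blocks glycine uptake through GlyT1, and 3 received vehicle (0.1% DMSO). The sample titles give 72 h under Th1 conditions with ALX-5407. The study's polarization methods and RNA-seq figure legend describe the same culture time, whereas its RNA-seq methods give a shorter exposure to ALX-5407. Both groups had the same Th1 stimulation (anti-CD3ε, anti-CD28, IL-2, IL-12 and anti-IL-4), so neither group shows resting cells. The labels call the samples biological replicates and do not say whether the cultures came from separate mice, so the p-values measure the spread between these cultures.

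mTOR is a protein kinase that works in a pair of complexes. In mTORC1 it is joined by Raptor (gene Rptor), the scaffold that recruits substrates for protein synthesis, and in mTORC2 by Rictor, the scaffold through which AKT is phosphorylated. mLST8 belongs to both. When amino acids are plentiful, heterodimers of RagA or RagB with RagC or RagD bring mTORC1 to the lysosome, and folliculin (Flcn) with its partner Fnip1 or Fnip2 acts on RagC and RagD as a GTPase-activating protein. The transcription factor TFEB, which drives genes of the lysosome, is kept in the cytoplasm by mTORC1 through this folliculin branch. In T cells, mTORC1 is known for its part in growth and Th1 differentiation after activation.

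Of the 10 genes, 5 were higher with ALX-5407 (Mtor, Rptor, Rraga, Rragc and Tfeb) and 4 were lower (Rictor, Mlst8, Flcn and Fnip1) at an adjusted p-value under 0.05 in edgeR's quasi-likelihood test. The background was high, as 47.7% of the 15938 genes tested were called, with 24.5% higher and 23.2% lower. The 2 groups of cultures did not overlap in any of the 10 genes, and 55.5% of all genes tested had no overlap either. None of the 10 passed the study's further threshold of an absolute log2 fold change over 1, which 10% of all genes tested did, and Flcn came nearest. The median log2 fold change was 0.22 for the 10 genes and 0.0053 for all genes tested. In bulk RNA, fewer cells that express a gene and less RNA per cell cannot be told apart.

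**Figure D1:**
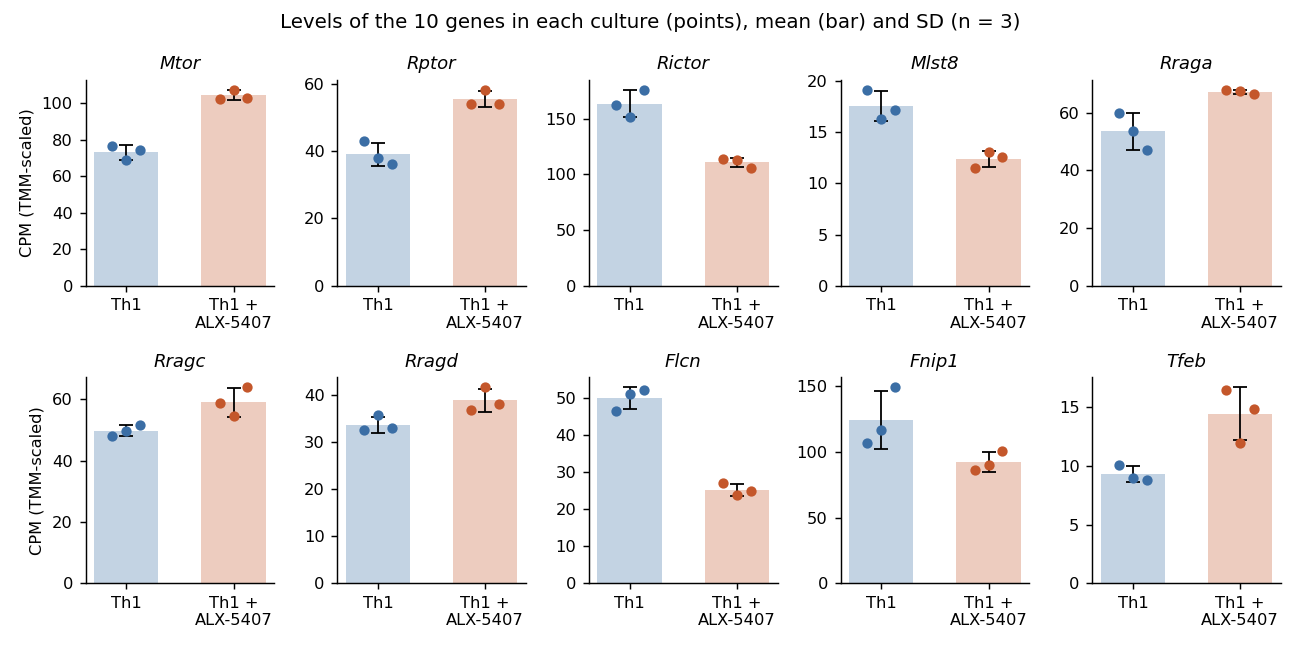
Levels of the 10 genes in CPM (counts scaled to library size by TMM, vertical axes from 0) in the 3 Th1 cultures (blue) and the 3 cultures with ALX-5407 (red). Points are cultures, bars are means and lines are the SD (n = 3). In every panel all 3 points of one colour lie above all 3 of the other, and the gap is widest for Flcn relative to its level.

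Total counts were 30801753 to 33432304 in the Th1 cultures and 34142475 to 36727788 with ALX-5407, and mitochondrial genes held 2.67% to 3.12% and 1.94% to 2.05% of them. Levels are given in CPM, counts scaled to a common library size with TMM factors. The T cell and Th1 markers Cd3e, Cd3g, Cd4, Tbx21, Ifng, Cxcr3 and Il12rb2 summed to 2231 to 2328 CPM and 1733 to 1789 CPM, with 1 of 7 higher (Tbx21) and 3 lower (Cd3g, Cd4 and Ifng). Of 3 B cell markers 2 were higher, with sums of 4.11 to 5.47 and 6.07 to 8.75 CPM, and of 2 CD8 markers 1 was lower, with sums of 9.25 to 9.59 and 6.71 to 8.87 CPM. Markers of myeloid, NK and erythroid cells each summed to at most 0.656 CPM in any culture, with Adgre1 at 0 with ALX-5407 and Hbb-bs likewise. The part of depth, mitochondrial share and B cell or CD8 transcripts in the results below was not tested.

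The mTOR kinase gene and the mTORC1 scaffold rose by similar amounts. Mtor (ENSMUSG00000028991, GRCm38 chromosome 4, 148448611 to 148557683) was at 76.7, 68.7 and 74.5 CPM in the Th1 cultures and at 103, 108 and 103 CPM with ALX-5407. The lowest treated culture thus lay well above the highest Th1 culture. This gave a log2 fold change of 0.51 (standard error, SE, 0.0721, edgeR adjusted p = 2.36e-05), a 1.42-fold rise. Rptor (ENSMUSG00000025583, chromosome 11, 119602905 to 119899576) stood at 43.0, 37.9 and 36.3 CPM without and at 54.2, 58.4 and 54.1 CPM with ALX-5407. The log2 fold change of Rptor was 0.51 (SE 0.0835, edgeR adjusted p = 0.000104).

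The mTORC2 scaffold went the other way. Rictor (ENSMUSG00000050310, chromosome 15, 6708379 to 6800401) was at 162, 152 and 176 CPM in Th1 cells and at 114, 112 and 106 CPM with ALX-5407. Treated cultures were close to each other and all below the Th1 cultures, and Rictor fell by 0.56 on the log2 scale (SE 0.0745, edgeR adjusted p = 1.25e-05). Mlst8 (ENSMUSG00000024142, chromosome 17, 24473550 to 24479078), the small subunit shared by both complexes, had 19.2, 16.3 and 17.1 CPM without and 11.5, 13.03 and 12.6 CPM with the inhibitor. It fell by 0.50 (SE 0.110, edgeR adjusted p = 0.0013). In GENCODE M21, 997 exon bases of Mlst8 (22.5%) are also exons of Bricd5 on the opposite strand, on which 0 reads were counted in the 6 libraries.

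The opposite changes of both scaffolds moved their ratio within each library, a measure in which the scaling to library size cancels. The log2 ratio of Rictor to Rptor counts was 1.92, 2.00 and 2.28 in the Th1 cultures and 1.07, 0.947 and 0.970 with ALX-5407. The difference was -1.07, so that Rictor relative to Rptor was 2.10-fold lower (exact two-sided permutation test, p = 0.1, the smallest that 3 against 3 cultures allow, and 0.125 adjusted over 5 ratios). Per length of exon, Rictor exceeded Rptor 3.01 to 3.87 times in Th1 cells and 1.53 to 1.67 times with ALX-5407. Rictor thus remained the higher of the pair in all 6 libraries.

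Other subunits of both complexes were taken from a list of pathway genes. Prr5l, which encodes an mTORC2-associated protein, rose most, from 2.83 ± 0.482 to 10.2 ± 0.282 CPM (mean ± SD of 3 cultures), with a log2 change of 1.85 (SE 0.159, edgeR adjusted p = 1.33e-07). Mapkap1, the gene of the mTORC2 core subunit mSIN1, rose from 38.5 ± 2.20 to 54.4 ± 0.621 CPM (log2 fold change 0.50), while Rictor fell. Deptor, which encodes an inhibitor bound to mTOR, and Prr5, which encodes another mTORC2-associated protein, had log2 fold changes of 0.77 and 0.95 from means of only 1.22 and 0.842 CPM, and their groups overlapped. The adjusted p of Deptor was 0.0464, and between 0.0527 and 0.162 in the 6 of 11 alternatives that lost the call (upper quartile scaling, DESeq2, and without Th1 replicate 1 or 2 or ALX-5407 replicate 2 or 3). For Prr5 it was 0.0405, and between 0.0523 and 0.181 in the 6 alternatives that lost it (upper quartile scaling, the replicate block, and without Th1 replicate 1 or 3 or ALX-5407 replicate 2 or 3). Akt1s1, the gene of the mTORC1 inhibitor PRAS40, had a log2 fold change of 0.042 (edgeR adjusted p = 0.763). Tti1 and Tti2, whose products help to assemble kinases of the mTOR family, had log2 fold changes of 0.42 and 0.31 (adjusted p = 0.000878 and 0.0303). The call for Tti2 was lost with upper quartile scaling and without Th1 replicate 1 or 2 or ALX-5407 replicate 1 or 3, at adjusted p-values of 0.0591 to 0.155. Of the subunits that both complexes share, Mtor and Deptor were higher and Mlst8 was lower. Of the 4 listed genes of mTORC2 alone (Rictor, Mapkap1, Prr5 and Prr5l), 3 were higher and Rictor was lower.

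**Figure D2:**
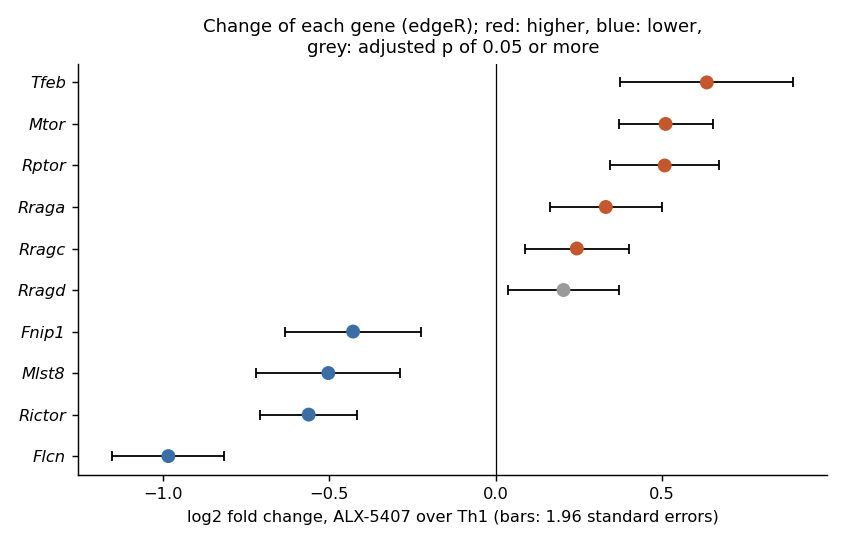
The log2 fold change of each of the 10 genes (ALX-5407 over Th1, horizontal axis) with bars of 1.96 standard errors from edgeR. Red points are higher and blue points lower at an adjusted p under 0.05, and the grey point is Rragd. Flcn lies near -1, and Mtor and Rptor lie at almost the same value, 0.51.

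Of the 4 Rag GTPase genes, Rraga and Rragc were higher with ALX-5407 and the other two were not called. Rraga (ENSMUSG00000070934, chromosome 4, 86575668 to 86577285), a gene with a single exon that encodes RagA, was at 59.9, 53.7 and 47.0 CPM in Th1 cells and at 67.9, 67.5 and 66.6 CPM with ALX-5407. The treated cultures differed little from each other, while the Th1 cultures were spread more widely, and the log2 fold change was 0.33 (SE 0.0859, edgeR adjusted p = 0.00454). Rragc (ENSMUSG00000028646, chromosome 4, 123917446 to 123936997), which encodes RagC, went from 48.2, 49.7 and 51.7 CPM to 58.7, 54.4 and 63.9 CPM, a log2 fold change of 0.24 (SE 0.0799, edgeR adjusted p = 0.0188). This call was lost without Th1 replicate 1 (adjusted p = 0.0792), Th1 replicate 2 (0.0569) or ALX-5407 replicate 3 (0.0882) and with upper quartile scaling (0.0584), while the log2 fold change lay between 0.19 and 0.30 over 11 alternatives. On the opposite strand, 4930535I16Rik shares 264 of its exon bases (7.9%) and held 4 reads in all libraries, against 11061 on Rragc. Rragd (ENSMUSG00000028278, chromosome 4, 32983037 to 33022180), which encodes RagD and is a known target of TFEB and its relatives, was at 32.6, 35.7 and 33.0 CPM without and 36.8, 41.7 and 38.1 CPM with ALX-5407. Although its groups did not overlap, the log2 fold change of 0.20 did not pass the threshold (edgeR adjusted p = 0.0571, interval of 1.96 standard errors from 0.038 to 0.37).

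Relative levels of alternative Rag genes were compared within libraries. The log2 ratio of Rragd to Rragc was -0.56 ± 0.0848 in Th1 cells and -0.60 ± 0.191 with ALX-5407 (SD, n = 3 each), and the groups overlapped (exact permutation test, p = 0.7). Rragb, the gene of RagB, was at 2.86, 2.71 and 4.48 CPM in Th1 cells and at 2.12, 2.63 and 2.57 CPM with ALX-5407. Its counts were only 75 to 138 reads per library. Although the groups did not overlap in CPM, the log2 fold change of -0.46 did not pass the test (edgeR adjusted p = 0.119). Rraga exceeded Rragb by 4.39, 4.31 and 3.39 log2 units in Th1 cells and by 4.999, 4.68 and 4.70 with ALX-5407. The difference was 0.76, and 0.44 without Th1 replicate 3, in which Rraga was lowest and Rragb highest (exact permutation test on all 6, p = 0.1, and 0.125 adjusted over 5 ratios). Per length of exon, RagA transcripts outnumbered RagB transcripts 14.6 to 44.6 times in these cells.

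The largest change of the 10 genes was that of folliculin. Flcn (ENSMUSG00000032633, chromosome 11, 59791408 to 59810016) was at 46.5, 51.1 and 52.1 CPM in Th1 cells and at 27.0, 23.8 and 24.9 CPM with ALX-5407. The highest treated culture lay far below the lowest Th1 culture. Flcn fell by 0.98 on the log2 scale (SE 0.0857, edgeR adjusted p = 1.55e-07), to 0.506 of its level in Th1 cells, and over 11 alternative analyses the log2 fold change lay between -1.04 and -0.94. No exon of another gene overlaps those of Flcn in GENCODE M21.

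The partners of folliculin changed in opposite directions. Fnip1 (ENSMUSG00000035992, chromosome 11, 54438199 to 54518235) was at 107, 117 and 149 CPM in Th1 cells and at 85.8, 90.1 and 101 CPM with ALX-5407. Th1 replicate 3 was the highest of the 6, the groups were separated by only the gap from 101 to 107 CPM, and Fnip1 fell by 0.43 (SE 0.104, edgeR adjusted p = 0.00285). Without Th1 replicate 3 it fell by 0.29 (edgeR adjusted p = 0.00474). Fnip2, the less abundant partner gene, rose from 5.63 ± 1.21 to 11.7 ± 1.19 CPM (mean ± SD of 3 cultures), with a log2 change of 1.06 (edgeR adjusted p = 3.79e-05). The log2 ratio of Fnip1 to Fnip2 was 4.39, 4.60 and 4.41 in Th1 cells and 3.05, 2.88 and 3.00 with ALX-5407. Relative to Fnip2, Fnip1 was therefore 2.81-fold lower with the inhibitor (exact permutation test, p = 0.1, and 0.125 adjusted over 5 ratios), beside a pooled SD of 0.103 log2 units within groups. Fnip1 was still the dominant form, at 8.62 to 9.72 times Fnip2 per length of exon with ALX-5407 and 24.7 to 28.5 times without.

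**Figure D3:**
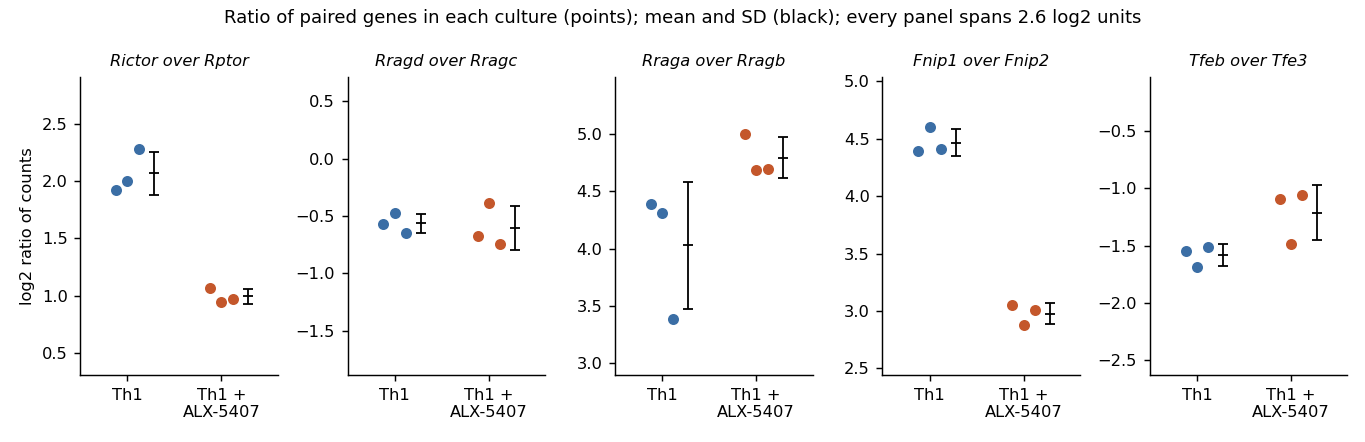
Log2 ratio of counts of paired genes in each culture (vertical axes, log2 units, the same span in each panel) for Th1 cells (blue) and Th1 cells with ALX-5407 (red), with the mean and SD (n = 3) in black. Rictor over Rptor and Fnip1 over Fnip2 are lower in all treated cultures, Rragd over Rragc overlaps, and Th1 replicate 3 stands apart in Rraga over Rragb.

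Tfeb, the gene with the lowest level of the 10 per length of all annotated exons, was higher with ALX-5407. Tfeb (ENSMUSG00000023990, chromosome 17, 47737030 to 47792419) was at 10.04, 8.99 and 8.81 CPM in the Th1 cultures and at 16.5, 11.98 and 14.8 CPM with ALX-5407. Its counts of 271 to 581 reads per library were among the smallest of the 10 genes, and the treated cultures were more spread than the Th1 cultures. The log2 fold change was 0.63 (SE 0.133, edgeR adjusted p = 0.000897), a 1.55-fold rise. The related factor gene Tfe3, whose product is also controlled through the folliculin branch, had a log2 fold change of 0.26 (edgeR adjusted p = 0.0308). That call was lost with upper quartile scaling and without Th1 replicate 2 or 3 or ALX-5407 replicate 1 or 2, with adjusted p-values up to 0.126. Per length of exon, Tfeb was at 0.507 to 0.572 of Tfe3 in Th1 cells and at 0.582 to 0.785 with ALX-5407. The log2 ratio of Tfeb to Tfe3 went from -1.58 ± 0.0929 to -1.21 ± 0.238 (SD, n = 3 each; exact permutation test, p = 0.1, and 0.125 adjusted over 5 ratios). Mitf had a log2 fold change of 0.26 (edgeR adjusted p = 0.371) and Tfec was not tested, with 0 to 4 reads per library.

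TFEB and its relatives bind the CLEAR element, whose core is CACGTG, and promoters were therefore searched for these letters. The windows were RefSeq promoters on GRCm38.p6, from 250 bases before to 50 bases after the transcription start, and all 10 genes and 87 of 106 pathway genes had at least 1. As CACGTG is its own reverse complement, 1 search covers both strands. It was found in 7.15% of 32851 promoters and, of the 10 genes, in those of Rragc and Fnip1, which moved in opposite directions. In Rragc it began 112 bases and in Fnip1 75 bases before the start. The windows of the other 8 genes, Flcn, Rragd and Tfeb included, did not hold these letters. Over the pathway list, 18.4% of 114 promoters held them. Of the 13 lysosomal genes listed as known carriers of CLEAR elements that had a window, only 8 held them. Absence from a window therefore does not show that a gene lacks the element. The stretches are shown 5′ to 3′ on the strand of each gene with CACGTG in capitals, first for the 2 genes with the core, then for Flcn, which changed most, and then for Gla and Mcoln1, which fell most, and Naglu and Sgsh, which rose most, among the 16 listed lysosomal genes with known CLEAR elements.
Rragc, chr4:123917274-123917373 (+): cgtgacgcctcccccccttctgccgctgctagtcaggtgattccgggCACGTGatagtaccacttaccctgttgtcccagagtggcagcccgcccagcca
Fnip1, chr11:54438057-54438156 (+): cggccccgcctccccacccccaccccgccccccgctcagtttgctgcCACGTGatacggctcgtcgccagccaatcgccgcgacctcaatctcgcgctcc
Flcn, chr11:59810040-59810139 (-): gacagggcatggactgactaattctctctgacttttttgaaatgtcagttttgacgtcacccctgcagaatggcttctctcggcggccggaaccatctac
Gla, chrX:134601156-134601255 (-): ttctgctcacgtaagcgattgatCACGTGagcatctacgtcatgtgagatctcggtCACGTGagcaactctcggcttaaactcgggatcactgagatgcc
Mcoln1, chr8:3500401-3500500 (+): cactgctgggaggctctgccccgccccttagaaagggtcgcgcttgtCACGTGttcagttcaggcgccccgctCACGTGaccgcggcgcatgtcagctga
Naglu, chr11:101069974-101070073 (+): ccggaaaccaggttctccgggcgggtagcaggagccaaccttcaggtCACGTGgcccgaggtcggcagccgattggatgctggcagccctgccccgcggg
Sgsh, chr11:119355511-119355610 (-): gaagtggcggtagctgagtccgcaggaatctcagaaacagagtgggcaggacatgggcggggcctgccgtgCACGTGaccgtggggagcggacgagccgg

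Of the pathway genes tested, 21 had CACGTG, and 5 of them rose (Naglu, Sgsh, Sgk1, Gaa and Rragc), 7 fell (Gla, Mcoln1, Cln3, Atp6v0e, Atp6v0b, Fnip1 and Glb1) and 9 were not called. Over all 1197 tested genes with these letters, 28.6% were higher and 22.8% lower. In Gla both copies, and in Mcoln1 the copy nearer the start, are part of the longer form TCACGTGA, which contains the core and was held by 0.974% of all promoters. Of the 21 genes, 7 had this longer form, and 4 of them fell (Gla, Mcoln1, Cln3 and Atp6v0e), 0 rose and 3 were not called (Telo2, Atp6v1a and Atp6v0d1). The log2 fold changes of the 4 were -1.35, -0.62, -0.49 and -0.41. Of the 78 other pathway genes with a promoter entry and a test, 29 rose and 21 fell. Over all 230 tested genes with TCACGTGA, 24.3% were higher and 24.8% lower, against 28.2% and 23.1% of the 10407 tested genes with a promoter entry. These counts were chosen after the values were seen and are a description.

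Levels of different genes can be compared only per length, for which RPKM, the CPM value per kilobase of exon, were computed with the gene lengths of the file. In Th1 cells the order ran from Tfeb (1.64 ± 0.118 RPKM; SD, n = 3) through Rptor (2.90 ± 0.259), Mlst8 (5.21 ± 0.438), Rragd (6.52 ± 0.327), Mtor (7.25 ± 0.406), Rictor (9.65 ± 0.725), Flcn (11.5 ± 0.686), Rragc (14.9 ± 0.523) and Fnip1 (17.4 ± 3.11) to Rraga (33.1 ± 3.99). Of these neighbours, Rragd and Mtor overlapped between cultures, as did Rragc and Fnip1. With ALX-5407, Flcn (5.83 ± 0.371 RPKM) and Rictor (6.54 ± 0.242) lay below Mtor (10.3 ± 0.272) and Rragd (7.51 ± 0.489), which had been below both without it. Rptor (4.12 ± 0.181) passed Mlst8 (3.67 ± 0.240), the highest Flcn culture (6.24 RPKM) lay just below the lowest Rictor culture (6.26 RPKM), and Rraga stayed highest and Tfeb lowest. The lengths count every annotated exon once, so genes with many alternative exons, such as Rptor, Rictor and Tfeb, have lower RPKM than a single transcript would give. The longest transcript holds 6594 of 13471 exon bases in Rptor, 9312 of 16930 in Rictor and 2342 of 5669 in Tfeb. The order and its changes, the places of Rptor, Mlst8 and Tfeb included, therefore hold for these lengths only. The order per single transcript was not tested. The length used for Mlst8 was 3366 bases, where GENCODE M21 has 4435, which would give a lower RPKM, and the lengths of the other 9 were equal.

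**Figure D4:**
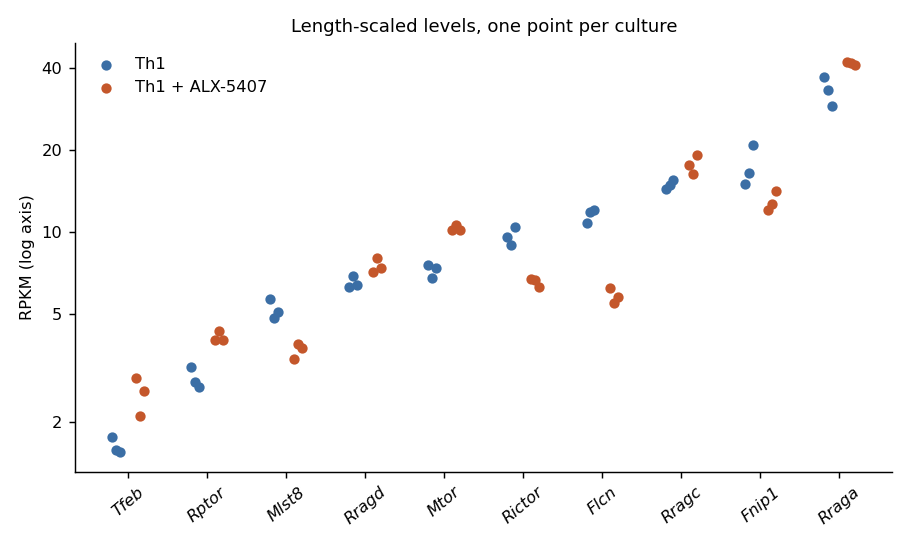
Length-scaled level of the 10 genes (RPKM, log axis) in each Th1 culture (blue) and each culture with ALX-5407 (red), ordered by the Th1 mean. Mtor is below Rictor and Flcn in blue and above both in red, and Rraga is the highest in each group.

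The further genes of the pathway gave the setting of these changes. The list held 106 genes in 16 roles, the 10 genes included, and 104 were tested. Of these, 34 rose and 30 fell (25 and 34 with upper quartile scaling), or 61.5%, against 47.7% of all genes tested, and the median log2 fold change was 0.064. Without the 10 genes, 29 of 94 rose and 26 fell (58.5%). A log2 fold change over 1 in size, at an adjusted p under 0.05, was found for 9 of the 104 genes, 8 of them higher. Among all 15938 genes tested, 1600 passed both thresholds, 536 of them higher and 1064 lower. Of the 8 higher pathway genes, Prkaa2 and Grb10 had Th1 means of only 0.299 and 0.677 CPM. Whether the direction of the 9 differs from that of all genes was not tested. The counts by role below stand beside 24.5% higher and 23.2% lower among all genes tested, and were not tested against these shares.

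Among the genes of 7 amino acid sensors, 2 rose, 2 fell (Slc38a9 and Bmt2) and 3 were not called. Sesn2, which encodes a leucine-binding inhibitor of GATOR2 and is a known ATF4 target, rose from 35.3, 30.2 and 28.1 to 79.5, 95.5 and 90.0 CPM, a log2 fold change of 1.499 (SE 0.0953, edgeR adjusted p = 5.95e-09). Sesn3, another sestrin, was at 286 CPM in both groups (log2 fold change 0.0027, edgeR adjusted p = 0.98), and Sesn1 was at a log2 fold change of 0.13 (adjusted p = 0.392). Castor2, a relative of the arginine sensor Castor1, rose from 75.0 ± 7.32 to 103 ± 4.50 CPM, while Slc38a9, the gene of the lysosomal arginine sensor and transporter, fell from 38.4 ± 2.86 to 28.6 ± 1.54 CPM (SD, n = 3 each).

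In GATOR1 and KICSTOR, complexes between the sensors and the Rag GTPases, 1 of 6 genes rose and 2 fell. Of GATOR1, which turns RagA and RagB off, Depdc5 rose (log2 fold change 0.63, edgeR adjusted p = 3.99e-06), Nprl2 fell by 0.36 (adjusted p = 0.00824) and Nprl3 had 0.25 (adjusted p = 0.058). The call for Nprl2 had an adjusted p of 0.0503 without ALX-5407 replicate 1. Itfg2, a subunit of KICSTOR, which anchors GATOR1 at the lysosome, fell by 0.38. In GATOR2, the inhibitor of GATOR1, the 2 genes that fell, Seh1l by 0.45 and Sec13 by 0.18, are also subunits of other complexes (both of the nuclear pore, Sec13 of COPII coats), and the other 3 were not called. Sec13 was close to the threshold (adjusted p = 0.0478), and its call was lost without the low-count filter and without any of Th1 replicates 1 and 3 and ALX-5407 replicates 1, 2 and 3, at adjusted p-values of 0.0683 to 0.130. Of the 5 Ragulator genes, which tether the Rag GTPases, Lamtor2 fell by 0.29 and the other 4 were not called. Lamtor2 had an adjusted p of 0.0159, and of 0.0746 and 0.0643 without Th1 replicate 1 and ALX-5407 replicate 3.

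Inputs through the TSC complex and AMPK were mixed. Tsc2, whose product switches off Rheb, the direct activator of mTORC1, rose from 44.3 ± 2.45 to 65.8 ± 2.77 CPM, and its partner Tsc1 fell from 60.0 ± 1.11 to 48.0 ± 3.51 CPM (SD, n = 3 each). Rheb had a log2 fold change of 0.20 (edgeR adjusted p = 0.115), and its relative Rhebl1 fell by 0.48, with an adjusted p of 0.00887, and of 0.057 without ALX-5407 replicate 1. Of the AMPK subunit genes, Prkab2 fell by 0.47, Prkag1 by 0.44 and Prkab1 by 0.23. Prkab1 had an adjusted p of 0.0295 and lost its call in 6 of 11 alternatives (without the low-count filter, and without Th1 replicate 1 or 2 or ALX-5407 replicate 1, 2 or 3). The catalytic gene Prkaa2 stood at a log2 fold change of 1.48 from only 0.299 CPM (adjusted p = 0.0223), and its adjusted p was 0.116, 0.0577, 0.0504 and 0.104 without Th1 replicates 1 and 2 and ALX-5407 replicates 2 and 3 in turn. Prkaa1, the other catalytic gene, had a log2 fold change of -0.098 (edgeR adjusted p = 0.336).

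Among genes of mTORC1 substrates, 5 of 9 rose and 1, Rps6kb2, fell. Of the 5, Lpin1 was close to the threshold (log2 fold change 0.21, edgeR adjusted p = 0.0362). It lost its call with RLE or upper quartile scaling, with DESeq2, and without Th1 replicate 2 or 3 or any ALX-5407 replicate. Eif4ebp2, which encodes a repressor of cap-dependent translation, rose from 131, 143 and 120 to 250, 270 and 273 CPM (log2 fold change 1.01, edgeR adjusted p = 4.98e-08), whereas its relative Eif4ebp1 was at a log2 fold change of -0.23 (adjusted p = 0.0679). Larp1, which represses translation of ribosomal protein mRNAs, rose from 355 ± 11.9 to 492 ± 12.7 CPM, and Grb10, an adaptor that restrains growth factor signalling, from 0.677 ± 0.269 to 2.16 ± 0.0778 CPM (SD, n = 3 each). Among genes of mTORC2 substrates, Akt1 rose by 0.62 and Sgk1 by 0.70 on the log2 scale, and Akt2 and Prkca were not called.

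The proton pump and the enzymes of the lysosome did not move as a block. Of 16 genes of the v-ATPase, which acidifies the lysosome and takes part in amino acid signalling to Ragulator, 2 rose, 7 fell and 7 were not called. Atp6v0a2 rose from 44.8 ± 1.01 to 80.4 ± 1.96 CPM, while Atp6v0b fell from 79.5 ± 4.05 to 41.6 ± 2.99 CPM and Atp6v1f from 81.9 ± 6.03 to 60.5 ± 5.61 CPM (SD, n = 3 each). Of 16 lysosomal genes listed as known carriers of CLEAR elements, 7 rose, 5 fell and 4 were not called, with a median log2 fold change of 0.09. Gla, the α-galactosidase gene, fell from 63.6, 58.2 and 72.7 to 27.6, 25.4 and 23.3 CPM (log2 fold change -1.35, edgeR adjusted p = 1.73e-08). Mcoln1, the gene of the lysosomal calcium channel TRPML1, fell by 0.62, and Naglu, which encodes an enzyme of heparan sulfate breakdown, rose by 1.10 on the log2 scale (edgeR adjusted p = 1.39e-05 and 4.37e-06).

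**Figure D5:**
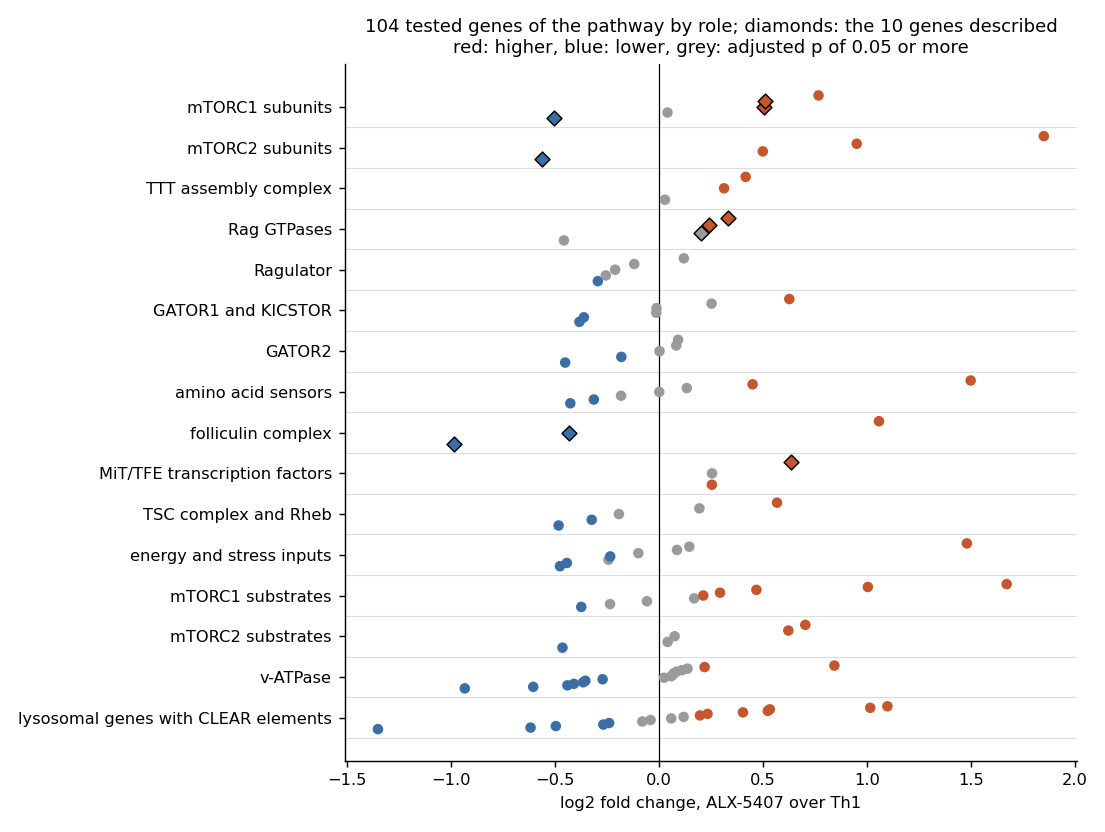
The log2 fold change (ALX-5407 over Th1, horizontal axis) of the 104 tested pathway genes by role, with red for higher, blue for lower and grey for an adjusted p of 0.05 or more. Diamonds are the 10 genes described first. Most roles hold genes on both sides of 0, with Gla at the left end (-1.35) and Prr5l at the right end (1.85).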

How the data were processed

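The authors deposited raw counts of reads per gene for 6 libraries, without normalization. The submitters' processing notes name fastp, HISAT2 2.0.5, featureCounts 1.5.0-p3 and mm10; strand use and multi-mapping reads are not given in the sources used here. The labels describe poly-T capture and the study's methods ribosomal RNA depletion. Gene lengths are those deposited; 98.3% of the gene identifiers in GENCODE M21 have the same coordinates there. Columns were matched to samples by group name and number.

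edgeR 4.0.16 (R 4.3.3; filterByExpr with a minimum count of 10 and total of 15, TMM, quasi-likelihood F test) compared the groups without covariates, with Benjamini-Hochberg adjustment over 15938 genes. The standard error is the log2 fold change over the square root of F. The procedure was tested on simulated data. Ratios were compared by exact permutation (scipy 1.17.1) and BLAST 2.17.0 was used to look for copies of the 10 genes. It found none over 5% or more of a transcript at 95% identity, apart from antisense genes overlapping Mlst8 and Rragc, which held 0 and 4 reads.

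The members and lists were chosen with earlier results of these data known. The list of 106 genes came from general knowledge. Named genes are the 10, Rragb, Fnip2, Tfe3 and, for each role, up to 3 called genes with the smallest p; other genes were named after their values were seen. An item that the rule covers is not reported here. Same-numbered libraries deviated together by correlations of 0.0241, 0.0229 and 0.132, so the numbers were not taken to pair them. Alternatives were DESeq2 1.42.0, RLE and upper quartile scaling, no filter, a replicate block, a pseudocount of 1 for ratios and each replicate left out.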

Additional observations from a re-analysis of the deposited data

How the results depend on the processing

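Of the 10 genes, 9 were called in the edgeR test, and 8 to 10 over the alternatives (8 with upper quartile scaling, 8 to 9 with 1 replicate left out). The background moved too. Among all genes tested, 7605 of 15938 were called in the edgeR test, 7571 of 15938 with upper quartile scaling and 7904 of 15938 with the replicate block. Without the low-count filter 7724 of 28464 were called, and without Th1 replicate 1 6550 of 16537. The pathway list had 34 genes higher and 30 lower, and between 25 and 34 of each over the alternatives, with 26 to 32 higher and 25 to 33 lower when 1 replicate was left out. No direction of the 10 genes turned. Rragc lost its call in 4 of 11 alternatives. With the replicate number as a block, 10 of the 10 genes were called, as Rragd passed (adjusted p = 0.0406), and 34 pathway genes were higher and 34 lower. The labels do not say whether libraries of the same number are paired. ALX-5407 replicates 1 and 3 correlated best with the Th1 library of the same number (0.0241 and 0.132), and ALX-5407 replicate 2 with Th1 replicate 1 (0.112). The block left the 5 ratio differences as they were, since its mean of differences is the same (-1.07 for Rictor over Rptor). With 1 replicate left out, the log2 ratio difference of Rraga over Rragb ranged from 0.44 to 0.94. Of the 35 other called genes that the naming rule picked by smallest p in each role, 26 kept their call in all 11 alternatives. Genes named outside that rule are not in this count, and of those Prkab1 and Glb1, for example, lost their calls in some alternatives. Genes under about 1 CPM, such as Prr5 and Prkaa2, have wide errors at this depth.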
